A study of Homo sapiens with 4 samples.

Results

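Mitochondria in most cells form a network that is joined by fusion and divided by fission. The 8 genes described here encode proteins of both processes or of their control and were chosen by name. MFN1, MFN2 and OPA1 are on the fusion side, and DNM1L, FIS1, MFF and MIEF1 on the fission side. OMA1 encodes a protease that cuts OPA1. All 8 were found among the 62700 genes of the count table, and all 8 passed the filter on low counts, which left 18973 genes to be tested. None of the 8 was called higher or lower in labelled libraries. All 8 are encoded in the nucleus.

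All 4 libraries were made from HEK293T, an established human line of embryonic kidney origin that the labels call a stable clone derivative. Every library carried the V5-tagged MITO-PRADA construct with CMV in its genotype label, directed to the mitochondrial matrix, so no library here came from cells without it. Cells of both groups took up 100 µM s4U (4-thiouridine, a uridine analogue that enters new RNA) for 5 h, followed by 30 min in 0.5 mM alkyne phenol with s4U kept at 100 µM. In the labelled group (2 libraries) a further 30 min with 10 mM D-amino acid started the PRADA reaction, and in the unlabelled group (2 libraries) it was omitted. Titles mark the labelled libraries with DF, which the labels do not spell out and which was read here only as the presence of the D-amino acid. Libraries were depleted of ribosomal RNA. The series describes its material as labelled and enriched, so a level below is a level in captured RNA, and a library of RNA before capture was not analysed here.

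Levels are counts per 1000000 fragments (CPM) after TMM scaling, which sets libraries side by side by the bulk of their genes. Assigned fragments ranged from 5771795 in unlabelled replicate 2 to 12287451 in labelled replicate 2. The mitochondrial chromosome gave 9.04 and 10.4% of them in unlabelled and 27.0 and 30.9% in labelled libraries. Unlabelled replicate 2 stood apart from the other libraries. Its median absolute difference over genes to unlabelled replicate 1 was 0.257 on the log2 CPM scale, against 0.141 between the labelled libraries. To the labelled libraries it was 0.271 and 0.294 for unlabelled replicate 2, and 0.184 and 0.202 for unlabelled replicate 1. Unlabelled replicate 1 was thus nearer to both labelled libraries than to unlabelled replicate 2. Both unlabelled libraries also differed from the rest in their alignment records. Unlabelled replicate 1 had the most multi-mapping records, at 22599823 against 6059635 to 15992331 elsewhere. Unlabelled replicate 2 had the most unmapped records, at 7160096. All 6 markers fixed for HEK293T (PAX2, LHX1, VIM, KRT8, KRT18 and NEFM) were detected in every library, with a summed level of 217 to 268 CPM in unlabelled and 231 to 235 CPM in labelled libraries. Markers of fibroblasts and endothelium summed to 12.4 to 19.5 CPM in unlabelled and 20.1 to 20.6 CPM in labelled libraries, nearly all of it COL1A1. Of the markers of other cell types, CD3E, HBB, COL1A2 and DCN were listed at 0 in every library. Others were found at low levels, among them CD14 at 0.905 to 1.40 CPM and HBA1 at 0.111 to 1.36 CPM. CD14 was thus near the level of LHX1, at 1.06 to 2.68 CPM, which is counted above as detected. Titles call the libraries biological replicates but do not tell whether their cultures were kept apart, and the p-values then reflect only how these libraries vary, which may be technical. In bulk RNA, fewer cells that carry a transcript and less of it per cell cannot be told apart.

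Fusion proceeds in steps. The mitofusins MFN1 and MFN2 are large GTPases that tether and join outer membranes, and OPA1 is a dynamin-related GTPase that joins inner membranes and shapes cristae. OMA1 is an inner-membrane protease that cuts OPA1 under stress. Fission is carried out by the dynamin-related GTPase encoded by DNM1L (the protein DRP1), which is drawn from the cytosol to the outer membrane by receptors, among them MFF and the MIEF1 product, also called MiD51. FIS1 encodes a small outer-membrane protein that was named for fission in yeast and whose part in mammalian fission is smaller than that of MFF.

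The mitofusins are paralogs, so whether fragments of their mRNAs can be told apart bears on every value given for them. The longest run of bases that their coding sequences share is 14 bases, in the GENCODE 29 transcripts on GRCh38. No pair among the 8 genes shared a longer run than 14 bases in its coding sequences. None of the 5118 stretches of 50 bases in the GENCODE 29 transcripts of MFN2 occurred in a transcript of another gene. The gene model used for counting gives MFN2 10234 exon bases, so part of its counted sequence was not covered by this check. For the other 7 genes between 0.364% (FIS1) and 6.01% (OMA1) of such stretches occurred elsewhere, with MFN1 at 5.47%.

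Overlapping genes take fragments away, because the counting was not stranded and a fragment that touches 2 genes stays unassigned. Positions are on GRCh38. MFN1 (ENSG00000171109, chromosome 3, 179347709 to 179394936), MFN2 (ENSG00000116688, chromosome 1, 11980181 to 12015211) and FIS1 (ENSG00000214253, chromosome 7, 101239458 to 101252316) shared no exon base with another gene. OPA1 (ENSG00000198836, chromosome 3, 193593144 to 193697811) shared 2.30% of its exon bases with OPA1-AS1 on the opposite strand. DNM1L (ENSG00000087470, chromosome 12, 32679200 to 32745650) shared 2.51% with an unnamed gene on the opposite strand. MFF (ENSG00000168958, chromosome 2, 227325151 to 227357833) shared 8.20% with MFF-DT, also on the opposite strand. OMA1 (ENSG00000162600, chromosome 1, 58415384 to 58546802) shared 6.91% with DAB1 on its own strand. MIEF1 (ENSG00000100335, chromosome 22, 39499432 to 39518132) contains all 213 exon bases of MIURF, which was listed at 0 fragments in every library, so fragments over those bases are missing from MIEF1 too. The 8 genes were well covered, with 171 to 2025 fragments per gene and library.

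No member passed the test over all genes (edgeR quasi-likelihood, Benjamini-Hochberg adjusted p under 0.05), where 0.285% of the genes tested passed. The adjusted p-values of the members lay between 0.426 and 0.999. With DESeq2 0 of the 8 passed either, against 0.458% of all genes with an adjusted p. At an unadjusted p under 0.05 there was 1 member, FIS1, by edgeR and there were 0 by DESeq2, where 11.5% of all genes had such a p by edgeR. The log2 fold changes of labelled over unlabelled libraries ran from -0.09 (OPA1) to 0.32 (FIS1), with a median of 0.13, and their standard errors from 0.12 to 0.14. The median over all genes tested was -0.01, with quartiles of -0.23 and 0.17. Fold changes were above 0 for 6 of the 8 members and for 48.0% of all genes. With scaling by library size alone all 8 were below 0, from -0.45 (OPA1) to -0.029 (FIS1), where the median of all genes was -0.37, and relative to it they ran from -0.08 to 0.34.

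By direction, 0.269% of all genes passed as higher and 0.0158% as lower, and 5.67% were higher at an unadjusted p under 0.05, as FIS1 was. The count of members called was also 0 with RLE size factors (0.3% of all genes called), with scaling from genes outside the mitochondrial chromosome (0.3%), with no filter (0.761%), with a CPM filter (0.269%), after thinning to the lowest total (0.319%) and with the replicate number as a block (1.24%).

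**Figure D1:**
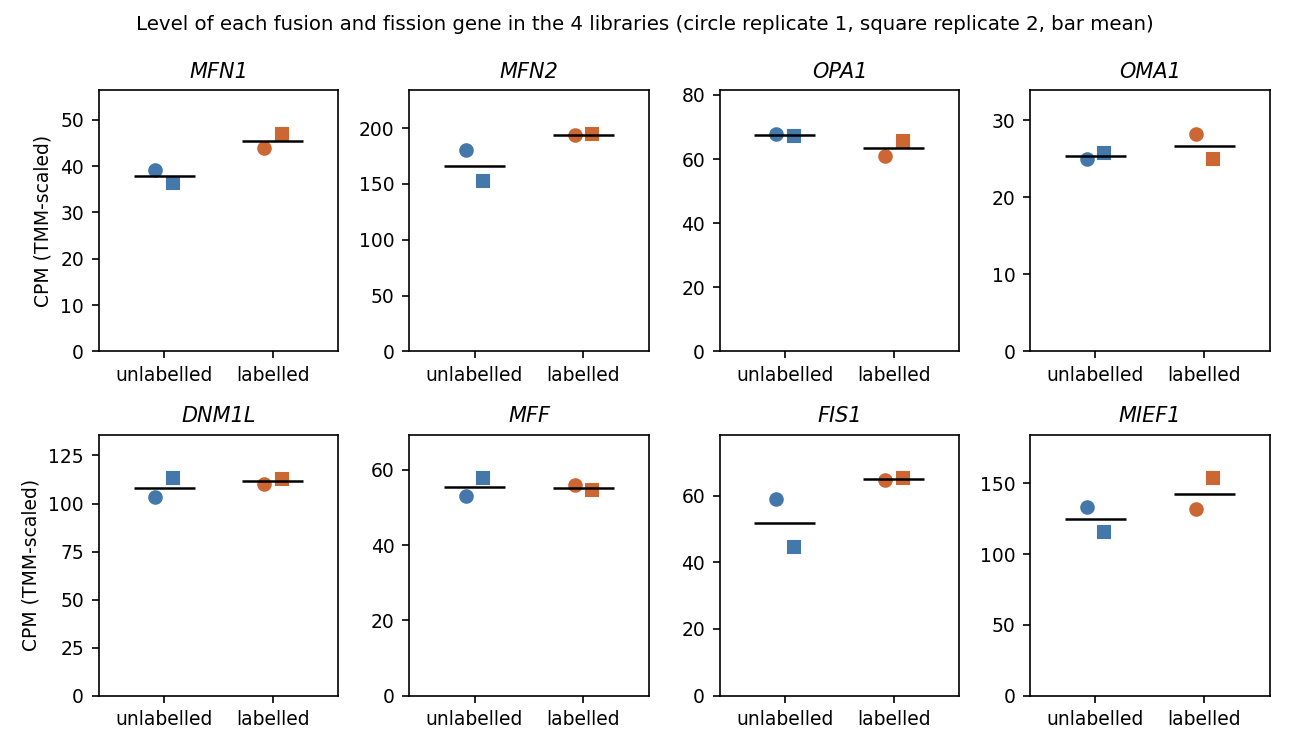
TMM-scaled CPM (vertical axes from 0) of each gene in each library, unlabelled in blue and labelled in orange, with circles for replicate 1, squares for replicate 2 and a bar at the group mean. The groups are apart for MFN1, MFN2, FIS1 and OPA1, and for MFN2 and FIS1 the unlabelled libraries differ far more from each other than the labelled libraries do.

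Among the outer-membrane fusion genes, MFN1 stood at 39.2 and 36.4 CPM in the unlabelled pair and at 43.96 and 46.9 CPM in the labelled pair. Both labelled values were above both unlabelled values, and the group means were 37.8 CPM ± 2.01 and 45.5 CPM ± 2.11 (SD, n = 2). The log2 fold change was 0.27 ± 0.13 (SE) with a 95% interval of -0.0087 to 0.54 and an edgeR adjusted p of 0.447. MFN2, the more abundant mitofusin, stood at 180.2 and 153 CPM in the unlabelled pair and at 194 and 195 CPM in the labelled pair. Its groups were also apart, but its unlabelled libraries differed from each other by more than the nearer of them differed from the labelled libraries. Its log2 fold change was 0.22 ± 0.14 (95% interval -0.08 to 0.52, edgeR adjusted p 0.559).

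The ratio of MFN2 to MFN1 within a library does not depend on the scaling between libraries. It was 4.60 and 4.195 in unlabelled and 4.40 and 4.15 in labelled libraries, on the CPM scale. These ranges overlapped, so no shift in the balance of the mitofusin mRNAs was seen beyond the spread between replicates. Per kilobase of exon the ratio was 2.55 ± 0.165 in unlabelled and 2.48 ± 0.104 (SD, n = 2) in labelled libraries.

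On the inner membrane, OPA1 had the lowest fold change of the 8. It stood at 67.8 and 67.1 CPM in the unlabelled pair and at 61.1 and 65.6 CPM in the labelled pair, so both labelled values were below both unlabelled values. The log2 fold change was -0.09 ± 0.12 (95% interval -0.36 to 0.18), with an edgeR adjusted p of 0.803. With scaling by library size alone OPA1 was called lower, at -0.45 with an adjusted p of 0.0400. That scaling moved the median of all genes to -0.37 and called 14.5% of them, 14.1% as lower, and relative to that median OPA1 stood at -0.08. OMA1, the protease, was the least abundant of the 8 in CPM, at 24.9 and 25.8 CPM in the unlabelled pair and at 28.2 and 25.01 CPM in the labelled pair. Its groups overlapped, and its log2 fold change was 0.07 ± 0.14 (95% interval -0.23 to 0.37). The ratio of OMA1 to OPA1 counts was 0.368 and 0.384 in unlabelled and 0.462 and 0.381 in labelled libraries, so labelled replicate 1 held the highest ratio and the groups overlapped.

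Of the fission genes, DNM1L stood at 103 and 113 CPM in the unlabelled pair and at 110.2 and 113 CPM in the labelled pair. The labelled values fell within the range of the unlabelled values, and the log2 fold change was 0.04 ± 0.13 (95% interval -0.23 to 0.32, edgeR adjusted p 0.926). MFF, the main receptor for DRP1 in mammalian cells, stood at 53.0 and 57.8 CPM in the unlabelled pair and at 56.0 and 54.6 CPM in the labelled pair. Its labelled values likewise lay between the unlabelled ones. Its log2 fold change of -0.00079 ± 0.12 (95% interval -0.27 to 0.27) was the nearest to 0 of the 8.

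FIS1 had the highest fold change of the 8. It stood at 58.9 and 44.7 CPM in the unlabelled pair and at 64.8 and 65.2 CPM in the labelled pair. The groups did not overlap, at 51.8 CPM ± 10.1 and 65.0 CPM ± 0.273 (SD, n = 2). Its log2 fold change was 0.32 ± 0.14 with a 95% interval of 0.0069 to 0.64, an unadjusted p of 0.0459 and an edgeR adjusted p of 0.426. The size depended on which unlabelled library was used. Without unlabelled replicate 2 the log2 fold change was 0.15 (edgeR adjusted p 0.528), and without unlabelled replicate 1 it was 0.57 (edgeR adjusted p 3.58e-05). The ratio of FIS1 to DNM1L counts was 0.570 in unlabelled replicate 1 and 0.395 in unlabelled replicate 2. In the labelled libraries this ratio was 0.588 and 0.578. The groups did not overlap, but unlabelled replicate 1 was only slightly below the labelled libraries. Most of the lower unlabelled mean came from unlabelled replicate 2 here as well.

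MIEF1, whose product is an outer-membrane adaptor that binds DRP1, stood at 134 and 116 CPM in the unlabelled pair and at 132 and 154 CPM in the labelled pair. The groups overlapped, with unlabelled replicate 2 the lowest and labelled replicate 2 the highest. Its log2 fold change was 0.19 ± 0.14 (95% interval -0.11 to 0.50, edgeR adjusted p 0.617). The ratio of MFF to MIEF1 counts was 0.397 and 0.499 in unlabelled and 0.425 and 0.355 in labelled libraries, and these ranges overlapped.

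**Figure D2:**
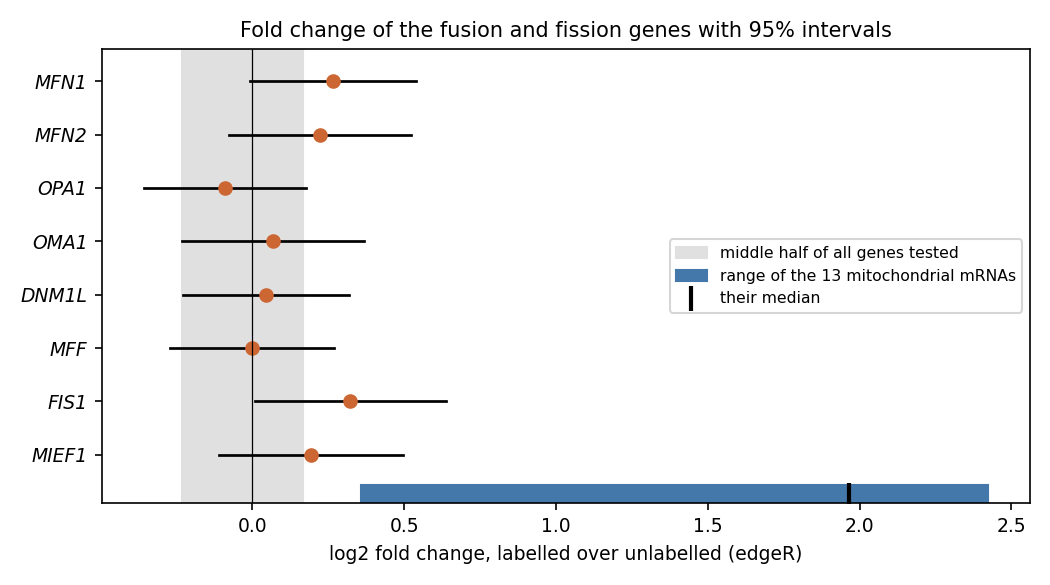
Log2 fold change of labelled over unlabelled libraries (horizontal axis, edgeR) for each gene, with points for estimates and lines for 95% intervals. The grey band spans the quartiles of all genes tested (-0.23 to 0.17), and the blue bar along the bottom spans the 13 mitochondrial mRNAs with a tick at their median of 1.96. FIS1 is the only gene of the 8 whose interval leaves out 0, and no interval extends past 0.64.

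Of the 8 genes, 4 had groups that were apart, 3 with labelled libraries higher and 1 lower. Groups were apart for 44.6% of all genes tested, 22.2% higher and 22.4% lower, so the members' count is near that background. The highest upper bound was that of FIS1, a 1.56-fold higher level in labelled libraries, and the lowest lower bound was that of OPA1, at 0.781-fold. For comparison, the 13 mRNAs encoded by the mitochondrial chromosome had log2 fold changes of 0.36 to 2.42 with a median of 1.96. They are made in the matrix, to which the construct is directed, and whether this bears on their fold changes was not tested. Of these 13, 4 passed edgeR over all genes as higher, and 11 passed DESeq2. The difference between the lists was not tested, since the members were chosen with earlier results known.

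Of all assigned fragments, the 8 genes together took 0.0726% (95% Wilson limits 0.0708 and 0.0745%) in unlabelled replicate 1. Their share was 0.0704% (0.0683 to 0.0726%) in unlabelled replicate 2. They took 0.0630% (0.0615 to 0.0647%) and 0.0608% (0.0594 to 0.0622%) in the labelled libraries, lower in both. Over fragments from outside the mitochondrial chromosome alone the order turned. On that base the 8 genes took 0.0799% and 0.0786% in unlabelled and 0.0863% and 0.0880% in labelled libraries. The direction of the share therefore depended on whether mitochondrial transcripts, whose share was higher in labelled libraries, were part of the total.

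Levels can be compared between genes only per length. Per kilobase of exon, FIS1 was the highest, at 32.6 CPM per kilobase ± 5.36 (SD over the 4 libraries), with 1791 exon bases in its gene model. MIEF1 at 17.7 and MFN2 at 17.6 followed and could not be ordered, because their ranges over the libraries overlapped. DNM1L at 13.6 and MFF at 8.96 came next, each apart from its neighbours in every library. OPA1 at 7.24, MFN1 at 7.00 and OMA1 at 6.99 CPM per kilobase overlapped one another. So each of the fission genes stood above OPA1, MFN1 and OMA1, and MFN2 was the only fusion gene among the 4 highest. Exon lengths are those of all annotated transcripts merged, which lowers the value of genes with long alternative exons, to a degree that differs between genes. Merged exons and main coding transcript had 10234 and 4539 bases for MFN2, and 5945 and 5224 for MFN1. They had 7555 and 2269 bases for MIEF1, and 8061 and 2699 for DNM1L. The order above rests on merged exons alone.

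**Figure D3:**
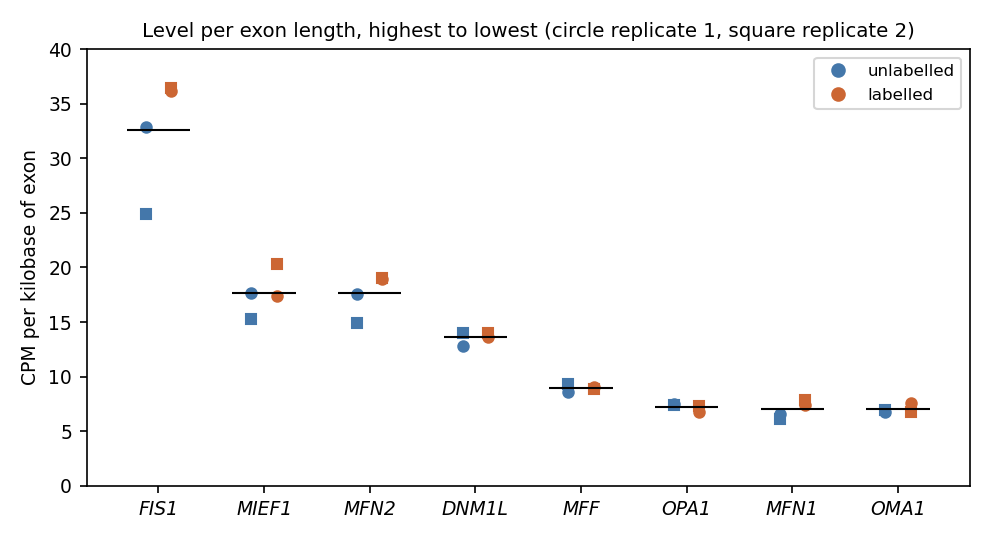
Level of each gene in CPM per kilobase of exon (vertical axis from 0), ordered from the highest mean to the lowest, with unlabelled libraries in blue, labelled in orange and a bar at the mean of the 4 libraries. FIS1 lies above all others in every library, and MIEF1 and MFN2 overlap, as do OPA1, MFN1 and OMA1.

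Base composition split the 8 genes in a way that their roles did not. MFN2, MIEF1 and FIS1 had GC-rich main coding transcripts, at 53.6, 57.0 and 58.3% GC and 23.6, 20.7 and 20.4% uridine. The other 5 had 38.4 to 43.4% GC and 26.8 to 30.4% uridine, the base that s4U replaces. The GC-rich genes were lower in unlabelled replicate 2 than in unlabelled replicate 1, by log2 differences of -0.24 (MFN2), -0.21 (MIEF1) and -0.40 (FIS1). For the other 5 this difference ran from -0.11 (MFN1) to 0.13 (DNM1L). Over the 8 genes Spearman's rho between GC content and this difference was -0.60, given as a description only, since all 8 points come from the same pair of libraries.

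Over 11397 protein-coding genes with at least 5 CPM, Spearman's rho between GC content and this difference was -0.31, and it was -0.18 for the difference between labelled replicate 2 and labelled replicate 1. Their median difference between unlabelled replicate 2 and unlabelled replicate 1 was 0.07 in the lowest of 5 equal bins of GC content and -0.19 in the highest. Between labelled replicate 2 and labelled replicate 1 the medians of these bins lay between -0.08 and 0.05. Exon length moved with the unlabelled difference as well, with a median of -0.19 in the shortest of 5 equal bins, which holds FIS1, and 0.06 in the longest, which holds MFN2. The part of GC content or length in the members' fold changes was not tested beyond the removal of the GC trend. With the GC trend of each library removed, an alternative added after the data were seen, the 8 fold changes stayed between -0.08 (OPA1) and 0.33 (FIS1) and 0 of the 8 passed, with 0.401% of all genes called. The 4 highest fold changes were those of FIS1 (0.32), MFN1 (0.27), MFN2 (0.22) and MIEF1 (0.19). These are the 3 GC-rich genes and MFN1, with 39.9% GC. Over the 11397 protein-coding genes Spearman's rho between GC content and the log2 fold change was -0.08. Their median log2 fold change was 0.03 in the lowest bin of GC content and -0.03 in the highest. It was 0.04 in the bin that holds the 3 GC-rich members.

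**Figure D4:**
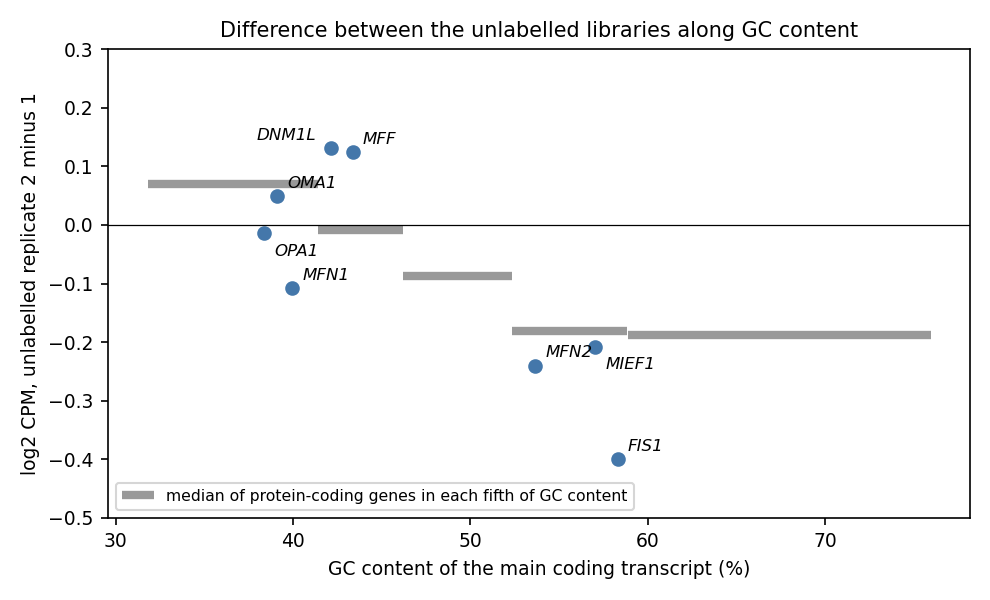
Log2 difference in CPM between unlabelled replicate 2 and unlabelled replicate 1 (vertical axis) against the GC content of the main coding transcript in percent (horizontal axis), with the 8 genes as points. Grey bars give the median of protein-coding genes in each of 5 equal bins of GC content and fall from 0.07 to -0.19, and MFN2, MIEF1 and FIS1 lie at -0.21 or below.

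The unlabelled libraries decided which members were called when a library was left out. Without unlabelled replicate 1, edgeR called MFN1 (0.36, adjusted p 0.0296), MFN2 (0.38, adjusted p 0.00399), FIS1 and MIEF1 (0.34, adjusted p 0.0123) higher, 4 of 8, where it called 19.0% of all genes. Without unlabelled replicate 2 it called 0 of the 8, with 4.61% of all genes called, and MFN2 stood at 0.11 and MIEF1 at 0.10. Without labelled replicate 1 (0.449% of all genes called) or labelled replicate 2 (0.279%) it also called 0 of the 8. Higher calls alone made up 11.6% of all genes without unlabelled replicate 1. With 3 libraries 1 group is a single library that is assumed to vary like the other, and edgeR took the spread of each gene from the trend over all genes in these 4 fits, so their p-values do not carry the spread of the gene itself.

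**Figure D5:**
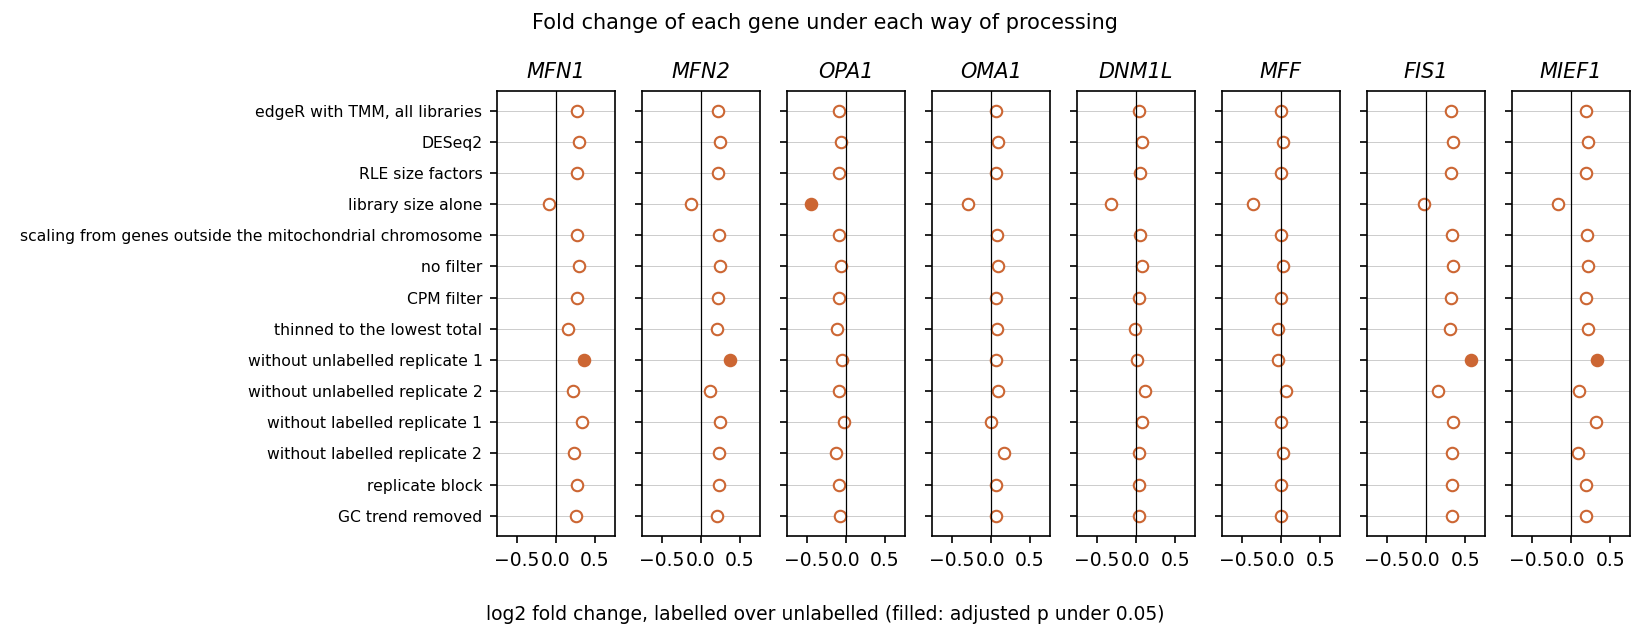
Log2 fold change of each gene (horizontal axes) under edgeR with all libraries, at the top, and under each alternative below it, with filled points for an adjusted p under 0.05. The 5 filled points are OPA1 with library size alone and MFN1, MFN2, FIS1 and MIEF1 without unlabelled replicate 1.

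Related genes were taken from 8 lists, which cover fusion, fission and OPA1 processing, and also cristae, transport along the cytoskeleton, mitophagy, ubiquitin and SUMO enzymes, and dynamins outside mitochondria. Of their 92 genes, 86 were tested, 0 passed edgeR or DESeq2 over all genes, and 8 (9.30%) had an unadjusted edgeR p under 0.05, 6 higher and 2 lower, against 11.5% of all genes. The median log2 fold change of the 86 was 0.05, with values from -0.50 to 0.75.

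The list of OPA1 processing, mitochondrial proteases and their scaffolds had a median of 0.07 over 11 genes. Of these, 0 had an unadjusted edgeR p under 0.05. YME1L1, the protease that cuts OPA1 in unstressed cells, had a log2 fold change of 0.13 ± 0.13, from 196 CPM ± 8.88 in unlabelled to 214 CPM ± 4.65 (SD, n = 2) in labelled libraries. PHB2, a prohibitin scaffold subunit, had -0.04 ± 0.17. The MICOS proteins, which form cristae junctions, and proteins associated with them had a median of 0.02 over 11 genes. In that list the core MICOS subunit IMMT had 0.13 ± 0.13 and DNAJC11 had -0.07 ± 0.12. MICOS13 was the lowest of all related genes, at 45.5 CPM ± 1.44 in unlabelled and 32.1 CPM ± 5.33 (SD, n = 2) in labelled libraries. Its log2 fold change of -0.50 ± 0.14 did not pass (edgeR adjusted p 0.259), and it was singled out after its values were seen.

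Other fusion and outer-membrane factors had a median of -0.09 over 5 genes, with MTCH2 at -0.25 ± 0.15 and MIGA1 at -0.13 ± 0.16. Other fission factors and partners of DRP1 had 0.08 over 13 genes, with the phosphatase PGAM5 at 0.05 ± 0.14 and the endoplasmic reticulum protein BCAP31 at 0.37 ± 0.18 (edgeR adjusted p 0.459). The ubiquitin and SUMO enzymes that act on mitofusins or DRP1 had 0.09 over 10 genes, with the ubiquitin ligase HUWE1 at -0.09 ± 0.18 and the segregase VCP at 0.02 ± 0.15.

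Genes of mitochondrial transport had a median of 0.07 over the 12 tested, with the kinesins KIF5B at 0.05 ± 0.13 and KIF1B at 0.01 ± 0.13. The armadillo-repeat genes ARMCX6 and ARMCX3 had the highest fold changes of all related genes, and both were singled out after their values were seen. ARMCX3, an outer-membrane protein, stood at 68.7 CPM ± 9.20 in unlabelled and 102 CPM ± 2.28 (SD, n = 2) in labelled libraries, with a log2 fold change of 0.57 ± 0.13 and an edgeR adjusted p of 0.156. ARMCX6 had 0.75 ± 0.24 (edgeR adjusted p 0.306). With the replicate number as a block the edgeR adjusted p was 0.0293 for ARMCX3 and 0.00246 for ARMCX6, and without the filter on low counts it was 0.0204 and 0.00207. Both of those fits took the spread from the trend over all genes. Mitophagy genes had a median of 0.05 over 14 genes, with the receptor FKBP8 at -0.20 ± 0.18 and the adaptor SQSTM1 at 0.14 ± 0.13. Dynamins and related GTPases outside mitochondria had 0.09 over the 10 tested, with DNM2 at -0.02 ± 0.15 and DNM1 at -0.31 ± 0.13 (edgeR adjusted p 0.396).

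The mean pattern of the 8 genes over the 4 libraries was shallow, at -0.02 and -0.11 in unlabelled and 0.05 and 0.08 in labelled libraries on the log2 scale around each gene's own mean. The genes nearest to it by root mean square difference, among 11483 with at least 5 CPM, were ARL1, CRISPLD1 and SLC41A1, at 0.0026, 0.0033 and 0.0041. A pattern over 4 libraries is matched by many genes, and 1705 of them lay at least as near to it as the nearest of the 8 members, at 0.0717.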

How the data were processed

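The authors deposited counts of fragments for each gene as whole numbers without normalization, and a summary of alignment records by assignment status, whose assigned totals equal the column sums. Per the file headers these counts came from featureCounts 1.6.4 on GENCODE 44, on read pairs with both ends mapped, over exons, without strand or multi-mapping options. Per the submitters' processing notes STAR 2.7.9a and GRCh38 were used, and DESeq2 1.42.0 is listed too. Whether duplicates were removed is not stated in the sources used here.

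Groups and replicate numbers came from the titles. All 62700 gene identifiers were matched to symbols. Biotypes (58207 genes), GC content and transcript sequences came from GENCODE 29 on GRCh38. For each member the transcript with the longest coding part was used.

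Counts were tested with edgeR 4.0.16 (quasi-likelihood, filterByExpr, TMM, no block) in R 4.3.3, with Benjamini-Hochberg adjustment over 18973 genes. CPM are counts per 1000000 scaled by TMM. Standard errors are the log2 fold change over the square root of F, and 95% intervals use the fit's degrees of freedom. DESeq2 1.42.0 was an alternative, beside other scalings, filters, thinning, left-out libraries and a replicate block. The test was tried on simulated data, in which the changes set were larger than any fold change of the members. That trial therefore does not bear on changes as small as theirs. Wilson intervals (SciPy 1.17.1) cover counting error only. Python 3.11.15, NumPy 2.4.6, pandas 2.3.3 and matplotlib 3.10.9 were used.

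The members and lists were chosen with earlier results of these data known. By rule the text names all members, the 2 most abundant tested genes of each list, any list gene past the threshold, and the 3 genes nearest to the members' mean pattern (protein coding or without a biotype, 0.1 CPM added before log2). Mitochondrial mRNAs are given as a group. A marker of another cell type, the sum of its list and a pair of sequence windows are not reported here.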

Additional observations from a re-analysis of the deposited data

How the results depend on the processing

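With DESeq2, RLE size factors, scaling from genes outside the mitochondrial chromosome, no filter, a CPM filter, thinning, the replicate block or the GC trend removed (an alternative chosen after seeing the data), 0 of the 8 genes passed. MFF, at -0.00079, changed sign with DESeq2 (0.028), RLE (0.0022), scaling outside the mitochondrial chromosome (0.0057), no filter (0.028) and the CPM filter (0.0015). DNM1L changed sign with thinning (-0.0080). MFN1 stood at 0.15 after thinning, against 0.27 with all fragments kept. Library size alone, which moved the median of all genes to -0.37, gave MFN1 -0.091, MFN2 -0.13, OMA1 -0.29, DNM1L -0.31, FIS1 -0.029, MIEF1 -0.16 and OPA1 -0.45, a median of -0.22 and 1 member called. Relative to the median of all genes that median was 0.14 with this scaling and 0.14 with TMM.

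FIS1 under the block stood at 0.34 with an edgeR adjusted p of 0.363. Leaving out each library gave 0.22 to 0.36 for MFN1, 0.11 to 0.38 for MFN2, -0.13 to -0.02 for OPA1, 0.0013 to 0.17 for OMA1, 0.0096 to 0.11 for DNM1L, 0.15 to 0.57 for FIS1, -0.033 to 0.065 for MFF and 0.090 to 0.34 for MIEF1, a median of 0.11 to 0.20 and 0 to 4 members called. Over all genes it gave 49 to 2440 higher and 9 to 1545 lower calls, and among the related genes 0 to 20 higher and 0 to 5 lower.

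Over all genes 51 were higher and 3 lower. The lower count was 12 with DESeq2, 5 with RLE and with scaling outside the mitochondrial chromosome, 9 with the GC trend removed and 2675 with library size alone, and no filter gave 183 higher and 119 lower. Of the 86 related genes tested, 13 were called lower with library size alone, where 14.1% of all genes were called lower. With no filter 2 related genes were called higher, where 0.761% of all genes were called in either direction. With the replicate block 2 were called higher, where 1.24% of all genes were called in either direction. The block gave 140 higher and 96 lower genes and called 0 members. The replicate numbers do not pair the libraries by the labels, and deviations of same-numbered libraries correlated at -0.07 over genes.

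With the denominator outside the mitochondrial chromosome the members' share was 0.0792% in unlabelled and 0.0872% in labelled libraries. Per kilobase the mean ratios in unlabelled and labelled libraries were 2.55 and 2.48 for MFN2 to MFN1, 0.914 and 1.02 for OMA1 to OPA1, 2.17 and 2.63 for FIS1 to DNM1L, and 0.548 and 0.477 for MFF to MIEF1. CPM without TMM moved 15 of 16 group means by more than their SD. Counting error was at most 7.65% of a member's count (OMA1, unlabelled replicate 2).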
